A study of Mus musculus with 6 samples.

Results

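Neuropilins, semaphorins and plexins form a guidance system that was first described in growing axons and is also used by leukocytes and vessels. Semaphorins are the ligands, either secreted (class 3) or held at the cell surface (the other vertebrate classes), and plexins are their main receptors, whose intracellular part switches off small GTPases of the Ras family and so loosens adhesion and reshapes actin. Neuropilins are co-receptors with a short intracellular tail, which help secreted semaphorins reach A-type plexins and also bind vascular endothelial growth factor (VEGF).

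The account below covers 10 genes of these families, Nrp1, Nrp2, Sema4a, Sema4b, Sema4d, Sema7a, Plxna1, Plxnb2, Plxnc1 and Plxnd1, out of 46983 genes counted and 31 family genes in all. They were picked by symbol with earlier results of the same comparison in view, so their differences between genotypes are given as a description, with fold changes and errors and with no p-value. The lists of related genes further below were also chosen with earlier results of these data known. Called genes of smallest p were among those named from them. The p-values printed for listed genes are therefore not independent support. RNA-seq libraries came from mouse leukemia cells driven by MLL-AF9, an oncogenic fusion of acute myeloid leukemia, as 3 replicates of Alox5-/- leukemia and 3 of WT leukemia, both on C57BL/6J and all untreated. In both groups, stem and progenitor cells sorted from bone marrow (lineage-negative, Sca-1 and c-Kit positive) received the fusion by retrovirus, and GFP-positive cells then went into irradiated C57BL/6J recipients. Alox5 codes for 5-lipoxygenase, which carries out the first step towards leukotrienes. The replicates are called biological in the labels, but the animals behind them are not given, so errors and p-values measure the spread between these libraries only.

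Libraries held 28985597 to 38695948 gene counts, and the values below are CPM, that is, counts relative to TMM-scaled depth. The targeted gene itself was at 65.6, 62.1 and 64.9 CPM in the Alox5-/- libraries, against 102.4, 105.6 and 105.7 CPM in the WT libraries. The groups were apart but transcript remained, and the sources used here do not say which exons the allele alters. Alox5-/- replicate 2 stood farthest from its group, with a chi-square per degree of freedom of 8.53 and 9.65 against its 2 fellows, where those differed by 2.11. Markers said to rise or fall were called by edgeR at an adjusted p under 0.05. Of all 13705 tested genes 53.8% were so called, 26.8% higher and 27.0% lower. Of 6 stem and progenitor markers 4 were tested, of which Cd34 and Flt3 rose and Kit fell. Kit was at 136.2 ± 2.73 CPM across Alox5-/- libraries against 159.7 ± 3.09 CPM across WT ones (all ± values are SD, n = 3 libraries per group), while Ly6a, which codes for Sca-1, was at only 0.763 ± 0.158 CPM across Alox5-/- libraries against 1.06 ± 0.169 CPM across WT ones. Of 12 macrophage and dendritic cell markers, 5 were tested, of which Vcam1, Itgax and Cd68 rose, Adgre1 fell and Csf1r was not called. The summed level of all 12 was 112.2 to 115.9 CPM in Alox5-/- and 88.3 to 93.8 CPM in WT, and the macrophage genes C1qa, C1qb and C1qc had 1 to 2 counts each over all 6 libraries. Of 10 endothelial and stromal markers, 4 were tested, of which Pecam1 and Pdgfrb rose. The sum was 210.3 to 214.6 CPM in Alox5-/- and 187.1 to 189.6 CPM in WT. Most of it was Pecam1, at 196.2 ± 2.45 CPM across Alox5-/- libraries against 173.7 ± 0.784 CPM across WT ones. Cdh5 had 7 counts in all, and Tek and Emcn had 0. Of 8 B, T and NK cell markers only Nkg7 was tested, and it rose. The sum was 15.1 to 19.7 CPM in Alox5-/- and 10.1 to 14.5 CPM in WT, with Cd3e at 0. Nearly all of it was Nkg7, at 17.4 ± 2.35 CPM across Alox5-/- libraries against 11.7 ± 2.26 CPM across WT ones. What part any such cells play in the values below was not tested, and in bulk RNA a change in the number of expressing cells and one in the RNA per cell cannot be told apart.

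Of the 10 genes, 4 differed by at least 1.5-fold, all upward in Alox5-/-, and the stretches just upstream of their RefSeq start sites are shown because they are the sequences in which these 4 loci can be compared. RefSeq (GRCm38.p6, which has the mm10 coordinates) held such windows for 9 of the 10 genes, Plxna1 being the one without, and 16 windows in all. Bases that any GENCODE exon covers were removed, and capitals mark GC boxes, GGGCGG or its reverse complement. The Nrp1 window is chr8:128358823-128359072 (plus strand), inside the GENCODE span of the gene, which starts upstream of it at 128358604. The Nrp2 window is chr1:62703067-62703284 (plus strand), the Plxnb2 window shown chr15:89180789-89181038 (minus strand) and the Plxnc1 window chr10:94944846-94945095 (minus strand). Plxnb2 has a second window, chr15:89173952-89174201, which is not shown and holds 3 GC boxes and 13 CpG dinucleotides.
Nrp1: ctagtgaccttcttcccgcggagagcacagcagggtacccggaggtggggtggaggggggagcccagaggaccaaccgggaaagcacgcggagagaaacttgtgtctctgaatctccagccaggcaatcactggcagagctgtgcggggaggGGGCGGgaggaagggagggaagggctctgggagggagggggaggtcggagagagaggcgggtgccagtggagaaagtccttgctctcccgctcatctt
Nrp2: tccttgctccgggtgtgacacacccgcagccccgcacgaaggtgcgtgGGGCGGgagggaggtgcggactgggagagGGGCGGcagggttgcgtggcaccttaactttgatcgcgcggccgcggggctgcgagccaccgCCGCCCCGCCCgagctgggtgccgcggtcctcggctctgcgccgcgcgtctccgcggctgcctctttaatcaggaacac
Plxnb2: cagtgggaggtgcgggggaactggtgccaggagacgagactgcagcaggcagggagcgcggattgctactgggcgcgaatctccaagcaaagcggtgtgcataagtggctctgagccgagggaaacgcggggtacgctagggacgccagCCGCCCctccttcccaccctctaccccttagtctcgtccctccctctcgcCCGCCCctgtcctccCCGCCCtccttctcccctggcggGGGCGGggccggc
Plxnc1: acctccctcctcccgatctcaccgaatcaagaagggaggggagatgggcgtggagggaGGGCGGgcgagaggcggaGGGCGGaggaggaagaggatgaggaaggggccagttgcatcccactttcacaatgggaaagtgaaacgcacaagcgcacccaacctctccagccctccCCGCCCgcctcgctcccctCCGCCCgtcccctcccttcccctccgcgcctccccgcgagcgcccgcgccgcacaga
The Nrp1 stretch holds 1 GC box and the other 3 hold 4 each, overlapping matches counted. Over the 250 bases upstream, searched on both strands, Nrp1 had 11 CpG dinucleotides, Nrp2 32, the Plxnb2 window shown 20 and Plxnc1 22. The median of all 32851 RefSeq windows was 6. High counts were not particular to these 4 genes, since the Sema4b windows had 20 and 23, Sema7a 17 and Plxnd1 16. The Sema4a windows had 2, 3, 13 and 6, and the Sema4d windows 2, 1 and 2. Over the whole 250 bases, exon bases included, a GC box was found in 13 of the 16 windows of the genes and in 32.7% of all windows. A TATA box (TATAAA) was found in 0 of the 16 and in 12.4% of all, an E-box (CACGTG) in 1 and in 6.02% of all, an AP-1 motif (TGANTCA) in 1 and in 6.75% of all, and a CRE (TGACGTCA) in 0 and in 1.55% of all. Windows of one gene share that gene, and a match describes letters, not binding. The set of all windows was not limited to expressed genes or matched for CpG content, and a difference in motifs was not tested.

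Both neuropilins were higher in Alox5-/- cells. Nrp1, the co-receptor for class 3 semaphorins and VEGF-A, was at 10.4, 8.38 and 9.72 CPM in Alox5-/- libraries, against 2.34, 2.26 and 1.91 CPM in WT libraries. Every Alox5-/- library lay far above every WT library, and Alox5-/- replicate 2 was the lowest of its group. Its log2 fold change was 2.14 (SE 0.12), a 4.41-fold difference with a 95% interval of 3.70 to 5.25. The WT libraries held only 67 to 73 counts each, for which counting alone gives a coefficient of variation of 12%, and the observed one was 10.5%. Nrp1 (ENSMUSG00000025810) spans 128358604 to 128503363 on the plus strand of chromosome 8. Nrp2, the co-receptor that prefers other class 3 semaphorins and VEGF-C, was at 13.1, 12.7 and 13.0 CPM in Alox5-/- libraries, against 5.96, 4.38 and 5.45 CPM in WT libraries. All 3 Alox5-/- libraries lay close together and above every WT library. Their coefficient of variation was 1.53%, below the 5.08% that counting alone gives, so their closeness understates the error. The log2 fold change was 1.29 (SE 0.09), or 2.45-fold (95% interval 2.13 to 2.81). Per kilobase of exon, Nrp2 stood at 1.13 ± 0.108 times Nrp1 in Alox5-/- and 2.02 ± 0.382 times in WT, so that Nrp1 made up 47.0 ± 2.34% of neuropilin transcript in Alox5-/- and 33.5 ± 4.43% in WT.

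**Figure D1:**
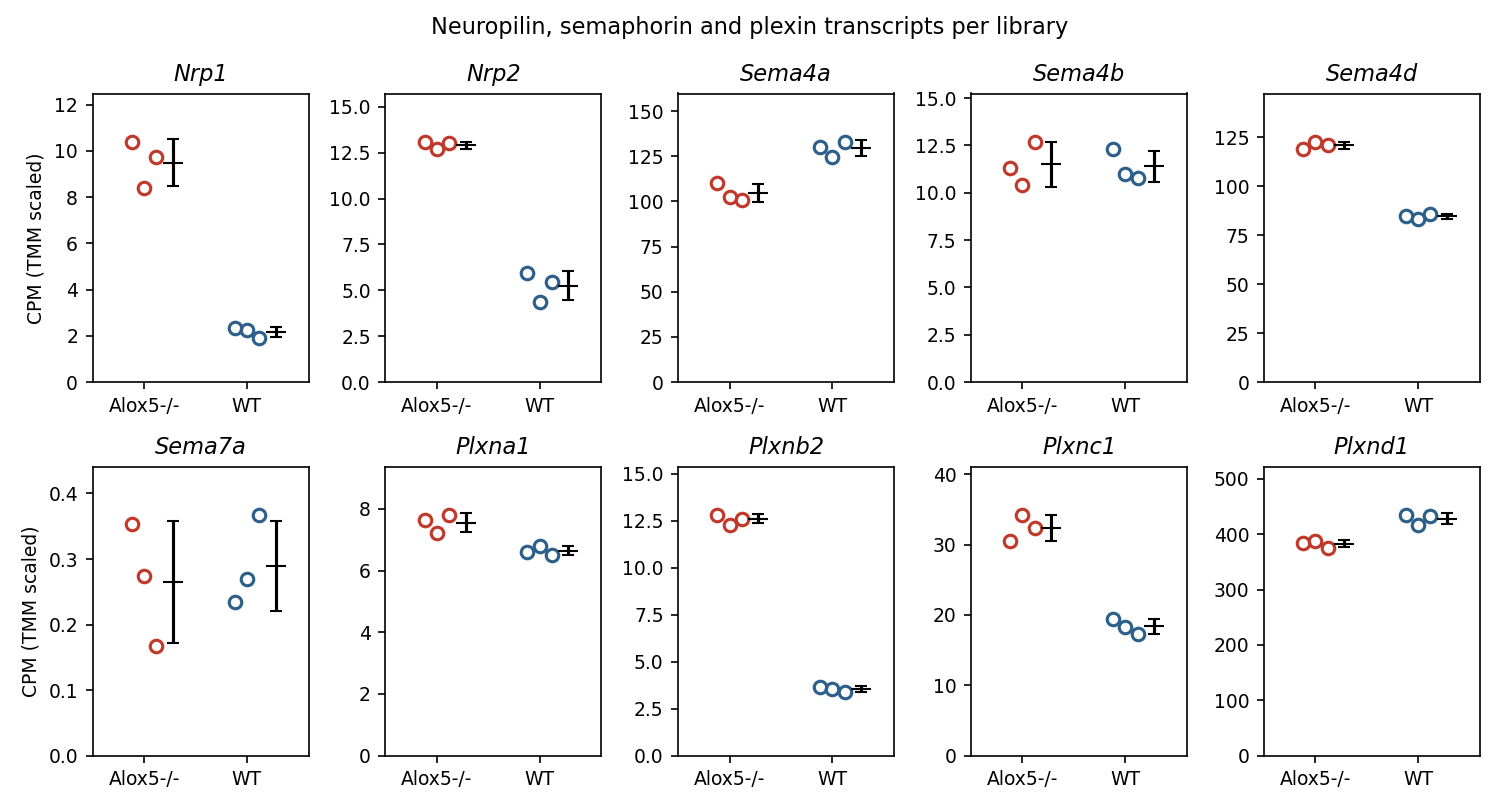
CPM after library scaling (vertical axes from 0, one scale per gene) of the 10 genes in the 3 Alox5-/- libraries (red circles, left) and the 3 WT libraries (blue circles, right), with bars for mean ± SD. Nrp1, Nrp2, Plxnb2, Plxnc1, Sema4d and Plxna1 lie higher and Sema4a and Plxnd1 lower in every Alox5-/- library, while Sema4b and Sema7a overlap.

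The semaphorin ligands did not move together. Sema4d, or CD100, a surface semaphorin of leukocytes that binds B-type plexins, was at 118.9, 122.8 and 121.1 CPM in Alox5-/- libraries, against 84.8, 83.2 and 85.9 CPM in WT libraries. The groups were well apart, with coefficients of variation of 1.59% in Alox5-/- and 1.62% in WT and a log2 fold change of 0.51 (SE 0.03). Sema4a, a surface semaphorin of dendritic cells and lymphocytes that binds B- and D-type plexins, was at 110.3, 102.7 and 100.9 CPM in Alox5-/- libraries, against 130.3, 124.6 and 133.1 CPM in WT libraries. Here the Alox5-/- values were the lower ones throughout, and the log2 fold change was -0.31 (SE 0.04). The opposite shifts of the pair meant that, per kilobase, Sema4d stood at 0.815 ± 0.0487 times Sema4a in Alox5-/- and 0.461 ± 0.00807 times in WT. Sema4b, another surface semaphorin, was at 11.3, 10.4 and 12.7 CPM in Alox5-/- libraries, against 12.3, 11.0 and 10.8 CPM in WT libraries. These libraries overlapped, and the log2 fold change was 0.01 with a 95% interval of -0.17 to 0.19. Sema7a, a lipid-anchored semaphorin that binds plexin-C1 and integrins, had 11, 8 and 5 counts in Alox5-/- libraries and 7, 8 and 14 counts in WT libraries, overlapping and too few to pass the filter on low counts. At this depth a difference in Sema7a could not be resolved.

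Among the plexin receptors, Plxnb2 and Plxnc1 were higher and the abundant Plxnd1 slightly lower in Alox5-/- cells. Plxnb2, a receptor for class 4 semaphorins, was at 12.8, 12.3 and 12.6 CPM in Alox5-/- libraries, against 3.68, 3.54 and 3.38 CPM in WT libraries. The groups did not overlap, and the log2 fold change of 1.84 (SE 0.08) is 3.57-fold (95% interval 3.16 to 4.04). The coefficients of variation were 1.95% in Alox5-/- and 4.29% in WT. Counting alone gives 5.14% and 9.34%, so the spread between libraries understates the error. Plxnc1, the receptor of Sema7a, was at 30.5, 34.2 and 32.4 CPM in Alox5-/- libraries, against 19.4, 18.3 and 17.3 CPM in WT libraries. Here too every Alox5-/- library was higher, at a log2 fold change of 0.82 (SE 0.06), or 1.77-fold. Plxna1, which signals for secreted semaphorins together with a neuropilin, was at 7.64, 7.21 and 7.80 CPM in Alox5-/- libraries, against 6.60, 6.80 and 6.52 CPM in WT libraries. The libraries did not overlap, but the difference was small, with a log2 fold change of 0.19 (SE 0.08; 95% interval 0.01 to 0.36), and it was not called. It was called when Alox5-/- replicate 2 was left out, with a log2 fold change of 0.23. Plxnd1, the receptor of secreted Sema3e and of Sema4a, was at 384.1, 388.2 and 376.0 CPM in Alox5-/- libraries, against 434.7, 416.2 and 433.7 CPM in WT libraries. The Alox5-/- libraries lay just under the WT ones, with a log2 fold change of -0.16 (SE 0.03). Plxnd1 lies on chromosome 6 from 115954811 to 115995005, only 415.1 kb from Alox5 at 116410077 to 116461178. Since every Alox5-/- library carries both the altered allele and the chromosome around it, an effect of that linked stretch and one of the loss of Alox5 cannot be told apart for Plxnd1. Plxna1 is on the same chromosome, 27.05 Mb away, and the other 8 genes are on other chromosomes.

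Counted over the set, 5 of the 9 tested genes were called higher and 2 lower by edgeR at an adjusted p under 0.05, where 53.8% of all 13705 tested genes were called, 26.8% higher and 27.0% lower. Groups were separate, with no shared range of CPM, for 6 higher and 2 lower genes, where 60.0% of all tested genes were separate, 29.7% higher and 30.2% lower. A call together with at least a 1.5-fold difference was met by 4 of the 9 upward and 0 downward, where 7.6% of all tested genes met it upward and 3.94% downward. The median log2 fold change of the 9 genes was 0.51 and that of all tested genes 0.00. Because the genes were chosen with this contrast in view, nothing is read from these counts.

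**Figure D2:**
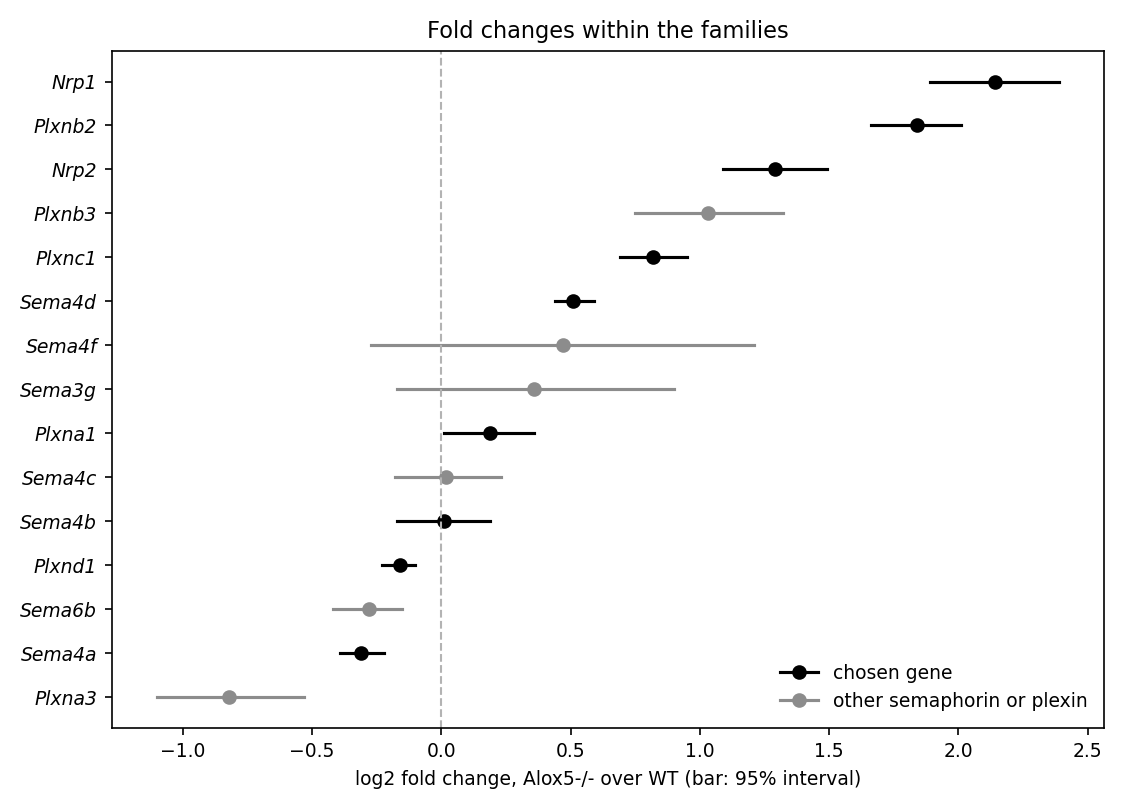
Log2 fold change of Alox5-/- over WT (horizontal axis; 0 is no difference) with its 95% interval for the 9 tested genes among the 10 chosen (black) and the 6 other tested semaphorins and plexins (grey). Values run from 2.14 for Nrp1 to -0.82 for Plxna3.

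Levels can be compared between genes only per length of exon, here as CPM per kilobase. The length was that of all annotated exons of a gene together, not of the transcripts expressed. The order of genes, their shares and their ratios depend on this choice, and the SDs do not include it. In Alox5-/-, Sema4d was above Sema4a in CPM (120.9 ± 1.92 against 104.6 ± 4.99) but below it per kilobase. In Alox5-/- cells the order was Plxnd1 (52.4 ± 0.85), Sema4a (19.4 ± 0.922), Sema4d (15.7 ± 0.251), Plxnc1 (3.88 ± 0.222), Sema4b (2.03 ± 0.208), Plxnb2 (1.63 ± 0.0319), Nrp2 (1.09 ± 0.0167), Nrp1 (0.97 ± 0.104), Plxna1 (0.834 ± 0.0335) and Sema7a (0.0803 ± 0.0281). Of these neighbours only Nrp1 and Plxna1 had overlapping libraries. In WT cells Plxnd1 (58.7 ± 1.42), Sema4a (23.9 ± 0.798) and Sema4d (11.0 ± 0.178) led again, followed by Plxnc1 (2.20 ± 0.124), Sema4b (2.01 ± 0.146), Plxna1 (0.733 ± 0.0159), Plxnb2 (0.458 ± 0.0196), Nrp2 (0.444 ± 0.0682), Nrp1 (0.222 ± 0.0233) and Sema7a (0.088 ± 0.0208). There Plxnc1 overlapped Sema4b, and Plxnb2 overlapped Nrp2. Among all tested genes ranked per kilobase, Nrp1 stood at percentile 18.7 in Alox5-/- and 7.0 in WT, and Plxnd1 at 91.9 in Alox5-/- and 92.6 in WT.

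**Figure D3:**
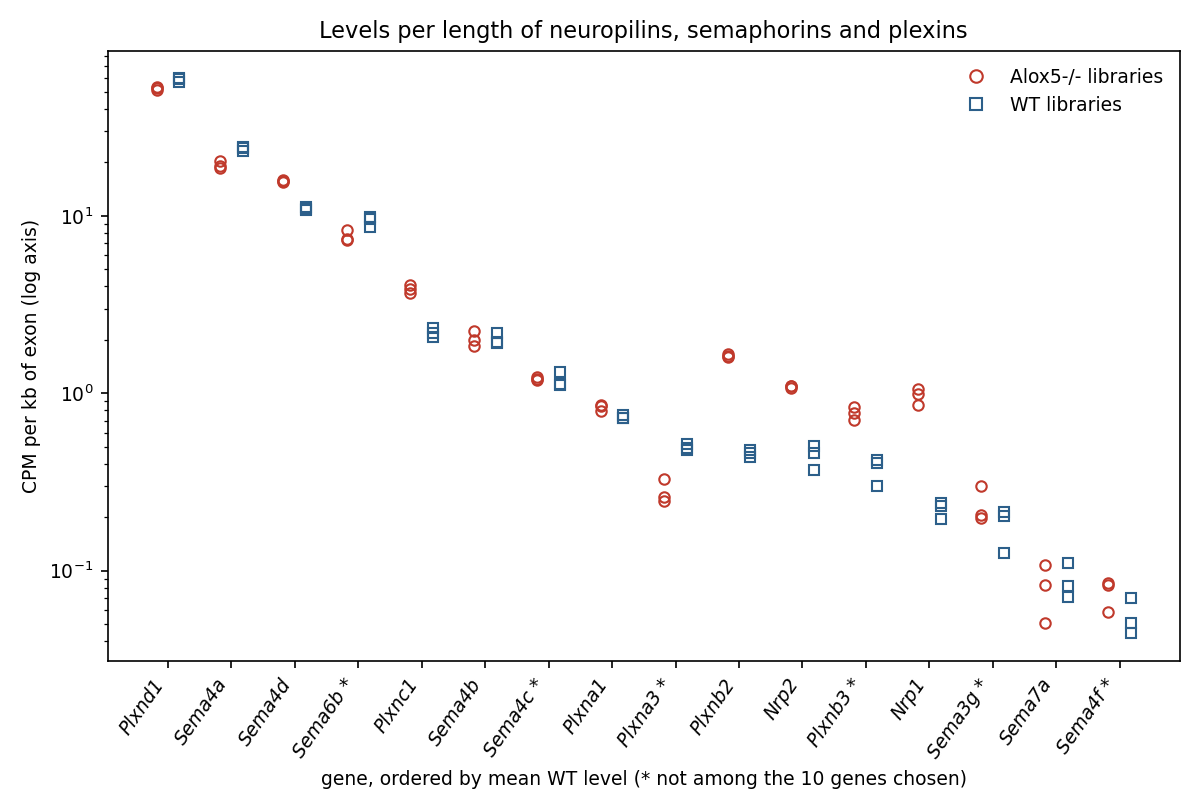
CPM per kilobase of exon (logarithmic axis) in each Alox5-/- library (red circles) and each WT library (blue squares) for the 10 genes and the 6 other tested semaphorins and plexins (starred), ordered by mean WT level. Plxnd1 is highest in both groups, and the widest gaps between groups are at Nrp1 and Plxnb2.

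For plexins and semaphorins the summed level was close between the groups while the shares of single genes shifted. Over all 9 plexins the summed level was 59.8 ± 0.863 CPM per kilobase in Alox5-/- and 62.9 ± 1.47 in WT, and Plxnd1 held 87.6 ± 0.185% of it in Alox5-/- and 93.2 ± 0.218% in WT. Plxnc1 held 6.48 ± 0.345% in Alox5-/- and 3.50 ± 0.199% in WT, and Plxnb2 held 2.73 ± 0.0786% in Alox5-/- and 0.727 ± 0.0335% in WT. Thus Plxnd1 transcript exceeded Plxnb2 transcript 32.1 ± 0.968 times per kilobase in Alox5-/- and 128.3 ± 6.38 times in WT. Over all 20 semaphorins the sum was 46.5 ± 0.723 CPM per kilobase in Alox5-/- and 47.9 ± 1.69 in WT, with overlapping libraries, whereas the plexin sums did not overlap. Sema4d held 33.8 ± 0.79% of this in Alox5-/- and 23.0 ± 0.482% in WT, and Sema4a held 41.6 ± 1.62% in Alox5-/- and 49.9 ± 0.429% in WT. The neuropilins did differ in sum, at 2.06 ± 0.12 CPM per kilobase in Alox5-/- and 0.666 ± 0.0719 in WT. Set against a receptor, Sema4d stood at 9.66 ± 0.342 times Plxnb2 in Alox5-/- and 24.1 ± 1.26 times in WT. Sema4a stood at 0.369 ± 0.0164 times Plxnd1 in Alox5-/- and 0.408 ± 0.00562 times in WT. Against Plxnb2, Sema4a stood at 11.9 ± 0.423 times in Alox5-/- and 52.4 ± 3.35 times in WT.

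**Figure D4:**
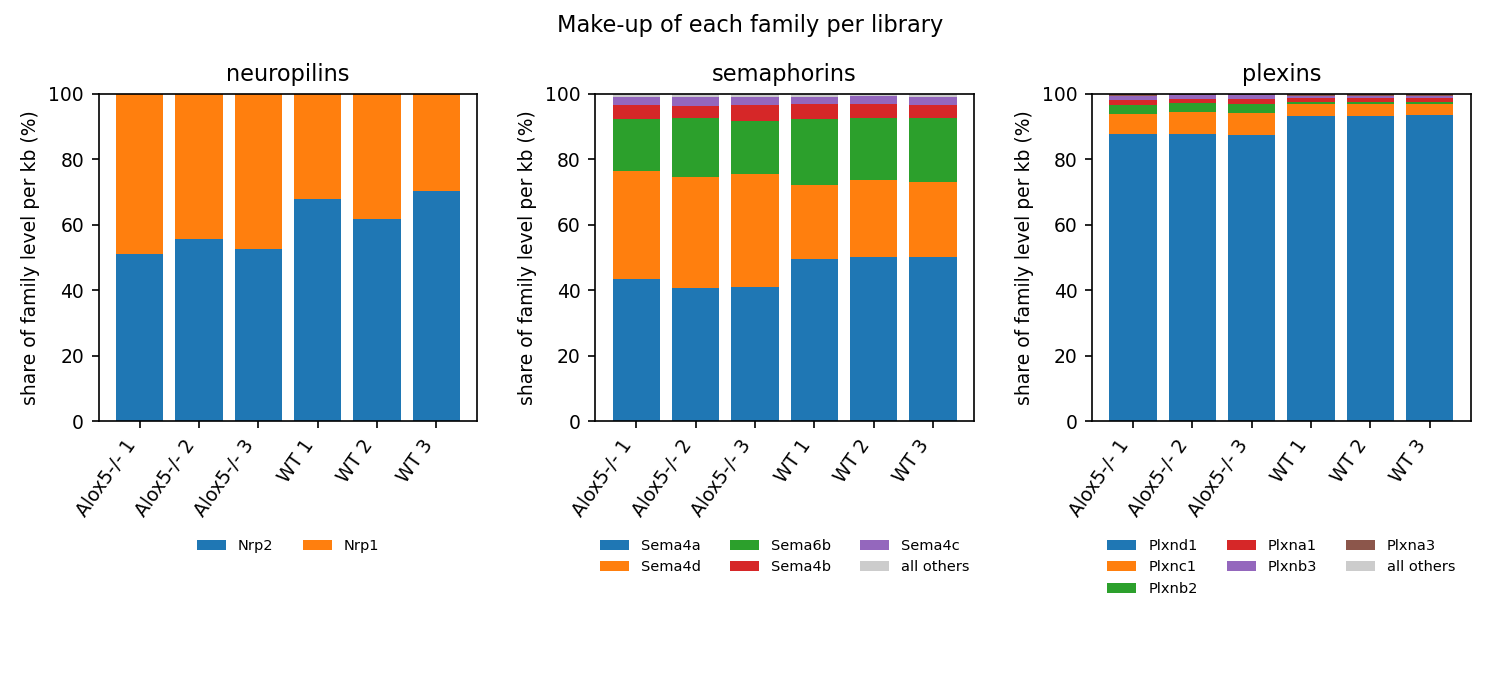
Share of each family's summed level per kilobase (vertical axis, percent) taken by its genes in the 3 Alox5-/- libraries (left) and the 3 WT libraries (right). Plxnd1 holds most plexin transcript in both groups, and the shares of Nrp1 and Sema4d are larger in the Alox5-/- libraries.

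Of the 21 other semaphorins and plexins only 6 were expressed enough to be tested, and 1 of them rose and 2 fell. Plxnb3, a receptor of Sema5a, was at 5.42, 4.58 and 5.05 CPM in Alox5-/- libraries, against 2.61, 1.95 and 2.72 CPM in WT libraries, and it rose by 1.03 on the log2 scale (SE 0.13; edgeR adjusted p = 1.03e-05). Plxna3, a partner of neuropilins in semaphorin 3 signalling, was at 2.60, 2.05 and 1.95 CPM in Alox5-/- libraries, against 3.75, 4.07 and 3.85 CPM in WT libraries, and it fell by 0.82 on the log2 scale (SE 0.13; edgeR adjusted p = 9.96e-05). These plexins, whose genes lie 556.6 kb apart on the X chromosome, moved in opposite directions. Sema6b, a transmembrane ligand of A-type plexins, fell by 0.28 (30.6 ± 2.28 CPM across Alox5-/- libraries against 37.2 ± 2.47 CPM across WT ones; edgeR adjusted p = 0.00126). Sema3g, Sema4c and Sema4f were not called, with log2 fold changes of 0.36 (95% interval -0.17 to 0.90), 0.02 (-0.18 to 0.23) and 0.47 (-0.27 to 1.21). The median of the 6 was 0.19. Of the 7 secreted class 3 semaphorins, Sema3g had the most, 177 counts over all 6 libraries, Sema3a had 19, Sema3b 14, Sema3f 10 and Sema3d 1, and Sema3c and Sema3e had 0, which allows up to 0.103 CPM in the shallowest library. Sema5b, Sema6a, Sema6d and Plxna4 were also at 0, and Plxnb1, the classical Sema4d receptor, had 6 counts.

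Of 21 other ligands and receptor partners 14 were tested, of which 4 rose and 3 fell, with a median log2 fold change of 0.02. Among all tested genes 53.8% were called, 26.8% higher and 27.0% lower, and whether this list differs from them was not tested. Vegfa, the VEGF that Nrp1 binds, was at 154.3, 160.5 and 153.0 CPM in Alox5-/- libraries, against 107.8, 96.7 and 92.9 CPM in WT libraries, and it rose by 0.66 on the log2 scale (SE 0.05; edgeR adjusted p = 2.45e-08). Vegfb rose by 0.45 (SE 0.08; edgeR adjusted p = 0.000274). Vegfc, which codes for the VEGF-C that Nrp2 binds, had 0 counts in Alox5-/- and 11 in WT. Vegfd had 17 in Alox5-/- and 11 in WT, and both genes had too few to be tested. Of the VEGF receptors, Flt1 was at 28.6 ± 0.796 CPM across Alox5-/- libraries against 29.9 ± 1.01 CPM across WT ones and was not called (log2 fold change -0.07, 95% interval -0.17 to 0.04), and Kdr, the receptor that Nrp1 assists in endothelium, had 2 counts in all. L1cam, an adhesion molecule that joins Nrp1 in semaphorin 3A reception, fell by 0.91 (6.69 ± 0.438 CPM across Alox5-/- libraries against 12.5 ± 1.1 CPM across WT ones; edgeR adjusted p = 5.17e-07). Of the Sema7a-binding integrin, the alpha subunit Itga1 fell by 0.65 (SE 0.10; edgeR adjusted p = 5.48e-05), whereas the shared beta subunit Itgb1, whose gene lies 182.3 kb from Nrp1, was at 380.4 ± 3.97 CPM across Alox5-/- libraries against 371.4 ± 19.1 CPM across WT ones and was not called (log2 fold change 0.03, 95% interval -0.04 to 0.11). Without WT replicate 2 the Itgb1 value was 0.08 and was called. Met, a kinase that B-type plexins associate with, was not called (log2 fold change 0.08, 95% interval -0.05 to 0.22), and nor was Cd72, a Sema4d receptor of B cells (0.09, -0.51 to 0.68), while Erbb2 had 0 counts. Trem2, which pairs with Plxna1 in myeloid cells, had 27 counts in all, and its adaptor Tyrobp, at 310.4 ± 10.8 CPM across Alox5-/- libraries against 330.0 ± 9.98 CPM across WT ones, fell by 0.09 (edgeR adjusted p = 0.0441), a call lost in 10 of 14 alternatives, without Alox5-/- replicate 1, 2 or 3 or WT replicate 1 or 3 among them. Ptk7, a receptor that associates with plexin-A1, rose by 0.46 (edgeR adjusted p = 0.0353) and Ptprc, or CD45, by 0.09 (edgeR adjusted p = 0.0371). The Ptk7 call was lost with DESeq2 (adjusted p = 0.203) and without Alox5-/- replicate 2 or 3 or WT replicate 2 or 3, and the Ptprc call without Alox5-/- replicate 1 or 3 or WT replicate 1 or 3. Without WT replicate 3 the list had 4 called genes.

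The relays inside the cell moved both ways. Of 38 intracellular signalling genes 31 were tested, 10 rose and 13 fell, with a median log2 fold change of 0.00. In this list 74.2% were called, against 53.8% of all tested genes, 26.8% higher and 27.0% lower. Whether the list differs from other genes was not tested. Fyn, a Src-family kinase that acts below plexin-A receptors, was at 51.9, 54.3 and 52.3 CPM in Alox5-/- libraries, against 31.0, 30.5 and 29.8 CPM in WT libraries, and rose by 0.80 (SE 0.04; edgeR adjusted p = 1.53e-09). Fes, a kinase activated by Sema3A signalling, was at 187.3 ± 3.96 CPM across Alox5-/- libraries against 245.0 ± 3.32 CPM across WT ones and fell by 0.39 (edgeR adjusted p = 9.23e-08). Mical1, an enzyme that oxidises actin on plexin signals, rose by 0.33 (edgeR adjusted p = 1.92e-06), and cofilin (Cfl1), which severs actin filaments, fell by 0.28 (edgeR adjusted p = 7.43e-06). Rap1a, a GTPase that plexins inactivate, rose by 0.26 (edgeR adjusted p = 4.59e-05), Rnd1, a GTPase that binds plexins, by 0.28 (edgeR adjusted p = 6.13e-05), and Farp2, a GEF of the plexin-A1 complex, fell by 0.61 (edgeR adjusted p = 0.00136). The direct partners of plexin-B receptors Arhgef11 (0.06, 95% interval -0.03 to 0.15) and Arhgef12 (-0.09, -0.48 to 0.31), and Gipc1, which binds the neuropilin tail (0.02, -0.10 to 0.14), were not called. Cd72, Erbb2, Cfl1, Mical1, Farp2, Arhgef11, Adam17, Pcsk7, Furin, Sema4c, Cd34 and Csf1r share exon bases with neighbouring genes on the opposite strand. Since the strand setting of the counting is not given, their values are less certain. L1cam shares exon bases with Arhgap4 on its own strand, so its value is less certain under any strand setting. None of the 10 chosen genes shared exon bases with a counted gene of more than 1 count. Plxnc1, and of the other named genes Itga1, Arhgef12 and Cd3e, shared exon bases with a gene that was not among those counted.

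Of 7 proteases that cut semaphorins 4 were tested, and 2 rose, where 26.8% of all tested genes were called higher. Adam10, a sheddase, was at 325.6 ± 6.15 CPM across Alox5-/- libraries against 282.6 ± 6.48 CPM across WT ones and rose by 0.20 (edgeR adjusted p = 6.27e-05). Furin, the convertase that processes class 3 semaphorins, was at 140.3 ± 9.56 CPM across Alox5-/- libraries against 114.4 ± 4.79 CPM across WT ones and rose by 0.29 (edgeR adjusted p = 8.22e-05). Named after their values were seen, Adam17 and Pcsk7 were not called, with log2 fold changes of 0.05 (95% interval -0.02 to 0.12) and -0.02 (-0.11 to 0.06), and Mmp14, which sheds Sema4d in tumours, had 2 counts. Pcsk6, likewise named with its values seen, had 0 counts in Alox5-/- and 18 in WT and was not tested.

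**Figure D5:**
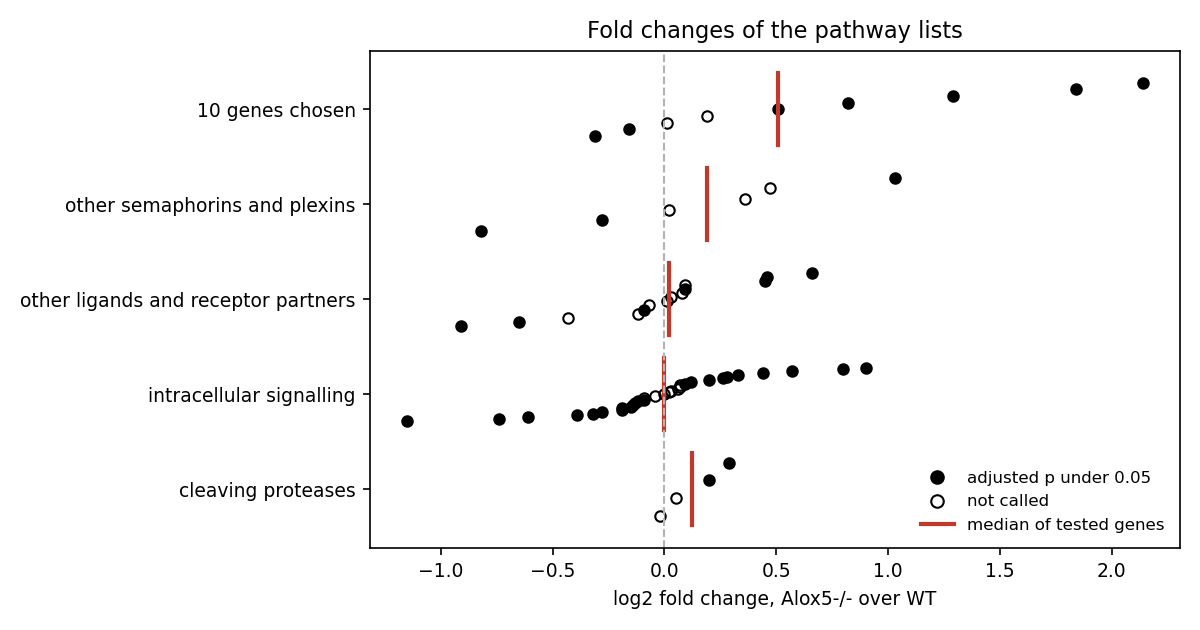
Log2 fold change of Alox5-/- over WT (horizontal axis) for each tested gene of the 10 chosen genes and of the 4 pathway lists, filled where the edgeR adjusted p was under 0.05, with a red line at the median of each list. The medians are 0.51, 0.19, 0.02, 0.00 and 0.12 from top to bottom.

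Among all tested genes, those whose centred log2(CPM + 0.5) profile over the 6 libraries lay nearest to that of Nrp1, which had the largest difference of the 10, included Platr17 (Euclidean distance 0.24), Vcam1 (0.266), Soat2 (0.296) and Rasgrp3 (0.32). Their log2 fold changes were 2.45, 2.04, 2.07 and 2.41, and over 2 groups such closeness mainly reflects a like difference between the groups.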

How the data were processed

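Poly-A RNA libraries (SMARTer amplification) of 3 Alox5-/- and 3 WT samples were grouped by their titles. The authors deposited raw read counts per gene, counted with HTSeq (build mm10), and the submitters' processing notes list DESeq2 as well. Aligner, versions, annotation release and strand setting: not given in the sources used here. Library sizes excluded the 5 summary rows that name no gene, which took 24.4 to 24.8% of reads as multiply aligned, 9.10 to 10.2% as outside genes, 0.523 to 0.547% as ambiguous and 4.57 to 5.78% as unaligned. Floors and counting errors reflect counting alone, because reads amplified without molecular barcodes need not be separate molecules.

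Counts were scaled by TMM and tested with the edgeR 4.0.16 quasi-likelihood F-test (R 4.3.3) of Alox5-/- against WT, with the default expression filter, no covariate, and Benjamini-Hochberg adjustment over 13705 tested genes. SE came from the coefficient and its F statistic. The test was first tried on simulated counts. Exon lengths and positions came from GENCODE vM21 on the same build, which held 98.95% of the identifiers. The 10 genes and the lists were chosen with earlier results of these data known. Genes given only by counts, and markers, were named after their values were seen; otherwise named were the 10 genes, the other tested family genes, up to 6 called genes of smallest p and the direct partners in each pathway list, Alox5 and the 5 genes nearest to Nrp1, of which 1 is not reported here. DESeq2 1.42.0, limma-voom (limma 3.58.1), other scalings, filters and a robust fit, each library left out and a replicate block were alternatives.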

Additional observations from a re-analysis of the deposited data

How the results depend on the processing

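Fold changes of the 9 tested neuropilin, semaphorin and plexin genes kept their direction in 14 alternatives (DESeq2, limma-voom, 2 other scalings, 2 other filters, a robust fit, each of 6 libraries left out and a replicate block), except Sema4b, which was never called and ranged from -0.06 to 0.09. Nrp1 ranged from 2.04 to 2.23 on the log2 scale, Plxnb2 from 1.80 to 1.87, Nrp2 from 1.18 to 1.38 and Plxnc1 from 0.78 to 0.86. The count of called members was 7 or 8; the eighth was Plxna1, called with upper-quartile scaling, with the stricter filter (a mean of at least 5 CPM) and without Alox5-/- replicate 2. Of the 21 other semaphorins and plexins, 1 was called under the stricter filter, where only 2 were tested. The partner list had 4 to 8 called genes with a library left out, lowest without WT replicate 3; the cause was not tested. The Tyrobp call was lost with DESeq2 (adjusted p = 0.0531), its size factors (0.0545), upper-quartile scaling (0.171), no filter (0.0566), the stricter filter (0.101) and 5 left-out libraries (0.0529 to 0.23). Taken as shares of raw reads in place of shares per length, the difference of Alox5-/- minus WT was -5.97 percentage points for Plxnd1, 12.53 for Sema4d and -9.97 for Sema4a, against -5.63, 10.87 and -8.33. Over all genes 6131 to 7622 calls were made, against 7379. Same-numbered libraries of the groups shared only a number, with correlations of -0.042, -0.128 and -0.014 of their deviations; with the replicate block 7029 genes and 7 of the members were called. The block also ended the calls of Ptk7 (adjusted p = 0.0549) and Ptprc (adjusted p = 0.0528). At this depth, low counts left Sema7a and 15 of the 21 other semaphorins and plexins untested.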
